A study of Rattus norvegicus with 10 samples.

Results

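Versican and the matricellular proteins were measured in the abdominal aorta of BN (Brown Norway) and LOU rats, as every probe set whose annotated symbol is Thbs1, Thbs2, Thbs4, Vcan, Tnc, Postn, Spp1, Comp, Sparc or Mgp. The annotation used here gave 13 such probe sets among 15866 tested, and they stand for 8 of the 10 genes. Vcan has 5 of them, Sparc has 2, and Thbs4, Comp, Tnc, Postn, Spp1 and Mgp have 1 each. Thbs1 and Thbs2 have none under this annotation and are not analysed here. The BN group and the LOU group are strains of untreated rats with 5 arrays each, labelled with an age of 5 weeks, while the growth notes allow up to 18 weeks. No transgene, deletion or agent is named for either strain. The labels and the design text give the abdominal aorta alone, the extraction notes also mention the thoracic aorta, and sex is not in the labels. The labels do not tie arrays to separate animals, so p-values measure only the spread between these arrays, which may be technical.

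Matricellular proteins are secreted into the extracellular matrix, where they tune how cells attach to it and respond to growth factors rather than building fibres themselves. In arteries many of them are low in the resting wall and are made by smooth muscle cells and fibroblasts during growth, injury or aneurysm. Versican is a large chondroitin sulfate proteoglycan that binds hyaluronan and fills the space between the cells and fibres of the vessel wall. The comparison of BN with LOU addresses the arterial traits of the BN rat that the series is named for.

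Every value below is a signal, the brightness of a probe set on a linear scale, and the number of arrays limits its precision. Differences are BN minus LOU in log2 units, fitted with limma over all 15866 probe sets, and an adjusted p under 0.05 counts as passing. Signals of different probe sets were not set against each other, since each binds with its own strength. The background level of an array, the 95th percentile of its bacterial control probe sets, lay between 21.2 and 49.2. Of the 13 probe sets, 11 were above it on all 10 arrays and 1 (Vcan 1371233_at) on none. All 10 smooth muscle markers and all 9 endothelial markers measured were above background on every array, as were 10 of 10 adventitial fibroblast, 8 of 8 macrophage and 8 of 9 adipocyte markers, so RNA of the wall and of tissue around it was read together. In such bulk samples fewer cells of a type and less RNA per cell cannot be told apart. LOU bases were not compared with the probes, so a strain difference in probe binding was not tested either. LOU array 1 stood apart: its mean log2 level of lymphocyte markers, relative to the mean of all arrays, was 1.58 where the other 9 arrays lay between −0.33 and −0.01, and that of macrophage markers was 1.01 where the others lay between −0.32 and 0.08. BN array 3 had the highest Schwann cell mean, 0.78, and the lowest endothelial mean, −0.54. The ratio of the 3′ to the 5′ GAPDH control probe set, a sign of RNA integrity, lay between 1.38 and 1.72 in BN and between 1.42 and 2.01 in LOU, and that of the actin probe sets between 3.47 and 5.39 in BN and between 3.85 and 4.59 in LOU.

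The promoters of the genes that the strain comparison turns on are shown first. Vcan and Thbs4 had the smallest p-values among the members, with opposite signs, and both lie on chromosome 2; Comp, on chromosome 16, is the nearest relative of Thbs4 among the members and differed the other way. Each sequence is the RefSeq window from 250 bases before to 50 bases after the annotated start, 5′ to 3′ on the gene's own strand, in the GRCr8 assembly. That assembly was made from a BN rat, so these are BN bases, and LOU bases were not used here. For Vcan, chr2:22595906-22596205 on the minus strand, the first of 2 overlapping windows is given. The Thbs4 window is chr2:25760296-25760595 and the Comp window is chr16:19089499-19089798, both on the minus strand. Capitals mark matches on either strand to 5 motifs. These are the TATA box, spelled TATAAA, which places the start of transcription. The CCAAT box is spelled as its name says, and the GC box that Sp1 binds is spelled GGGCGG. The site of the AP-1 factors is spelled TGANTCA, and the CArG box, which serum response factor binds in smooth muscle genes, is given by its name.
Thbs4: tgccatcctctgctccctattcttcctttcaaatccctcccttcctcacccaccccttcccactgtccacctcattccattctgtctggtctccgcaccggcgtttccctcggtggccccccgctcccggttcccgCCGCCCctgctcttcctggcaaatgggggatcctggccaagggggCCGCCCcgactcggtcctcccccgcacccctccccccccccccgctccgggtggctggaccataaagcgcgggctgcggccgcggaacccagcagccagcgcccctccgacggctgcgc
Comp: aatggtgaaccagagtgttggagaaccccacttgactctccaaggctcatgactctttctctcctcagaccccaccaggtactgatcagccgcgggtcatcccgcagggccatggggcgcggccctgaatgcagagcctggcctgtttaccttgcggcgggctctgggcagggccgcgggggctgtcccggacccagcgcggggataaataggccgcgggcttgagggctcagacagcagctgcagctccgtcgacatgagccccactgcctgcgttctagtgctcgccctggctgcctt
Vcan: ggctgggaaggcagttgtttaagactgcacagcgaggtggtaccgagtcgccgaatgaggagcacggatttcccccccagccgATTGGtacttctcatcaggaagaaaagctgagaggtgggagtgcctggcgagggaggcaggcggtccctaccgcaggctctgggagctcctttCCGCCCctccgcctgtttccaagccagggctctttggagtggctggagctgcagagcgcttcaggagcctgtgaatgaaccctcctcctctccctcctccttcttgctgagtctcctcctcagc

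The Thbs4 window held 2 GC boxes, at −114 to −109 and −69 to −64 from the start, and the Vcan window held 1 GC box at −74 to −69 and 1 CCAAT box at −167 to −163, all read on the opposite strand. The Comp window held no match to these 5 motifs. A GC box stood in 33.1% of all 33469 promoter windows of this length, a CCAAT box in 37.5%, a TATA box in 14.2%, an AP-1 site in 7.33% and a CArG box in 1.64%. None of the 3 windows held a TATA box, AP-1 site or CArG box in these letters, which says nothing of the factors themselves. GC content was 70% for Thbs4, 64.7% for Comp and 61% for Vcan, against a median of 51.7% over all windows. Of the members, 8 had a window in the RefSeq table, and Thbs2 and Mgp had none.

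Over the 8 genes, BN aorta had less Vcan and Comp signal and more Thbs4 and Tnc signal, at folds between 1.46 and 1.99, while Postn, Spp1, Sparc and Mgp differed by at most 1.17-fold. No member passed limma's test over all probe sets: 0 of 13, where 0.788% of all probe sets passed. At an unadjusted p under 0.05, 7 of the 13 differed, 5 lower and 2 higher in BN, where 13.3% of all probe sets did, 8.09% lower and 5.16% higher. With arrays centred on their medians the split over all probe sets was 1000 lower and 1064 higher, against 1284 lower and 819 higher without. Those 7 are 4 probe sets of Vcan and 1 each of Comp, Thbs4 and Tnc, and the 4 of Vcan read 1 gene. The arrays of the strains did not overlap for 4 of the 13, namely 3 Vcan probe sets with BN below LOU and Thbs4 with BN above, where 4.18% of all probe sets separated, 2.77% with BN below and 1.41% with BN above. Median centring turned that split over all probe sets to 339 below and 315 above, against 439 below and 224 above without it. In 10 of the 13 the difference was negative, with a median of −0.23, where the median over all probe sets was −0.03 and 53.5% were negative. The smallest adjusted p of a member was 0.0806, and an unadjusted p of at most 0.000392 was needed to pass among 15866 probe sets.

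**Figure D1:**
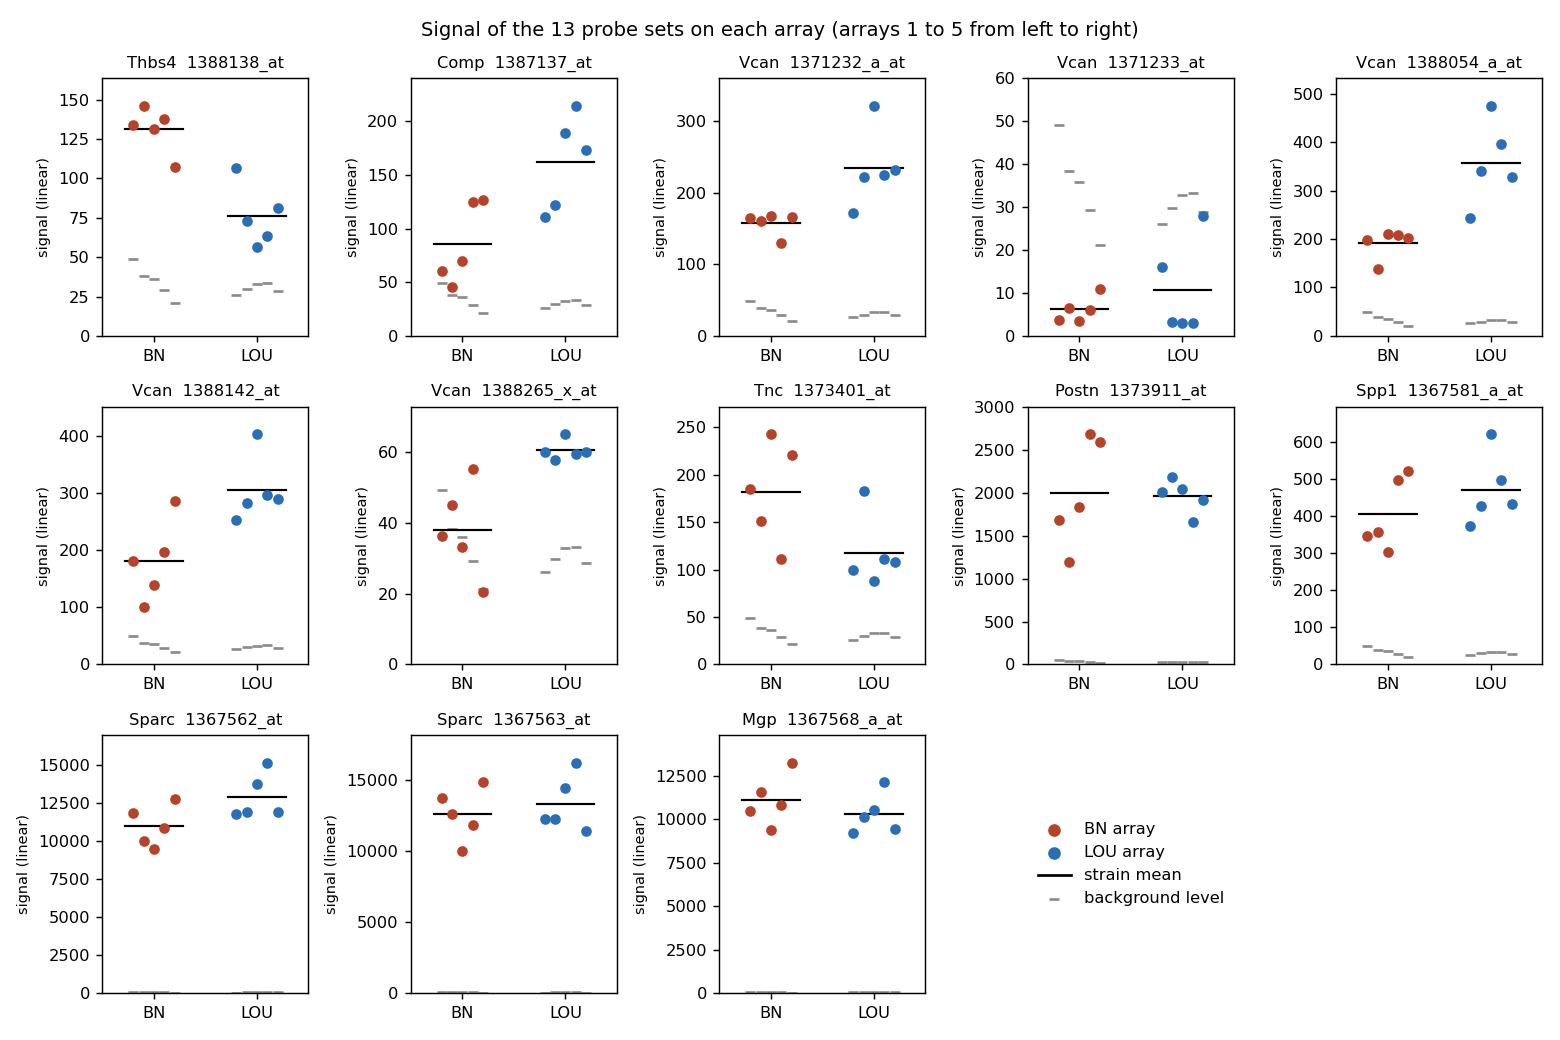
Signal (linear scale, vertical axis from 0) of the 13 probe sets on each array, BN left and LOU right, with the strain mean as a line and each array's background level as a grey dash. The Thbs4 signals of BN (107.3 to 146) lie above those of LOU (56.7 to 106.7), and the signals of Vcan 1388054_a_at lie below them (137.6 to 209.4 in BN against 242.4 to 474.2 in LOU).

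Thrombospondins are calcium-binding glycoproteins that bridge cells and matrix, and Thbs4 and Comp belong to the branch that assembles into pentamers. Thbs4, which in mice limits fibrosis of the heart under pressure load, gave 133.8, 146, 131.1, 138 and 107.3 on BN arrays 1 to 5, against 106.7, 73.3, 56.7, 63.3 and 81.1 on LOU arrays 1 to 5. Every BN array was above every LOU array, although BN array 5 (107.3) and LOU array 1 (106.7) were nearly level. The means were 131 ± 14.5 in BN and 76.2 ± 19.4 in LOU (SD, n = 5 each), a 1.76-fold difference (95% confidence interval 1.33 to 2.31). The log2 difference was 0.81 (SE 0.18, limma adjusted p = 0.0806, unadjusted p = 0.00105), the smallest p of the members and rank 207 of 15866. Without LOU array 1, the array with the immune markers, the difference was 0.94 (limma adjusted p = 0.0316), and without that array and BN array 3 it was 0.94 (adjusted p = 0.0670). Thbs4 did not pass when any other single array was left out, with 0.71 (limma adjusted p = 0.172) without LOU array 3.

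Comp, the cartilage oligomeric matrix protein, binds collagen and in mouse arteries helps to keep smooth muscle cells contractile. Its signal was 60.1, 46.1, 69.6, 124.7 and 126.9 on BN arrays 1 to 5, against 111, 121.6, 189.4, 214.3 and 173.3 on LOU arrays 1 to 5. BN arrays 1, 2 and 3 lay below every LOU array, and BN arrays 4 and 5 lay among the lower LOU arrays. The means were 85.5 ± 37.8 in BN and 162 ± 44.3 in LOU (SD, n = 5 each). The log2 difference of −0.99 (95% confidence interval −1.70 to −0.28) was the largest of the 13 in size and did not pass (limma adjusted p = 0.211, unadjusted p = 0.0109). It ran from −1.16 to −0.80 when any 1 array was left out.

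Comp and Thbs4 are also made by tendon and cartilage cells, and Thbs4 by skeletal muscle. The 2 measured tendon markers other than members, Fmod and Tnmd, had a median of 0.03, and 9 measured cartilage markers had a median of 0.12, with 5 positive and 4 negative. The 10 measured skeletal muscle markers had a median of −0.01, with summed signals of 3395 to 5360 in BN and 2256 to 3553 in LOU. The cartilage markers summed to 875.3 to 1094.5 in BN and 1043.9 to 1863.5 in LOU, and the tendon markers to 1051.8 to 1538 in BN and 925.8 to 1584.9 in LOU. The cartilage marker with the smallest p was Cytl1, a secreted cytokine-like protein, with means of 548 ± 92.9 in BN and 1022 ± 297 in LOU (SD, n = 5 each), a log2 difference of −0.87 that did not pass (limma adjusted p = 0.101). At an unadjusted limma p under 0.05, 2 of the 9 cartilage markers were higher in BN and 1 lower, where 5.16% and 8.09% of all probe sets were. The cartilage collagen gene Col2a1, chosen after its value was seen, was 73.5 ± 16.8 in BN and 59.7 ± 12.1 in LOU. No gene of these 3 lists passed the test, only the muscle gene Myh4 among them was above background on no array, and their part in the Comp and Thbs4 differences was not tested.

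The 4 Vcan probe sets above background on at least 7 arrays all had lower means in BN. Probe set 1371233_at, above background on none, had a lower mean in BN but a higher median (6.1, against 3.3 in LOU). The brightest, 1388054_a_at, gave 197.9, 137.6, 209.4, 209.2 and 202.2 on BN arrays 1 to 5, against 242.4, 340.3, 474.2, 396.9 and 328.2 on LOU arrays 1 to 5. All BN arrays lay below all LOU arrays, and 4 of the 5 BN signals lay close together, between 197.9 and 209.4. The means were 191 ± 30.4 in BN and 356 ± 86.0 in LOU (SD, n = 5 each), so that BN had 0.543 times the LOU signal (95% confidence interval 0.401 to 0.736). The log2 difference was −0.88 (SE 0.20, limma adjusted p = 0.0866, unadjusted p = 0.00118). Without LOU array 1 it was −1.01 (limma adjusted p = 0.0447), and without LOU array 1 and BN array 3 it was −1.05 (adjusted p = 0.0759). This probe set did not pass when any other single array was left out, with −0.77 (limma adjusted p = 0.177) without LOU array 3.

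Probe set 1371232_a_at gave 164.4, 159.8, 167.9, 129 and 165.9 on BN arrays 1 to 5, against 171.7, 221.4, 320.6, 224.5 and 231.6 on LOU arrays 1 to 5. The strains again did not overlap, but LOU array 1 (171.7) lay just above the highest BN array (167.9), and with the arrays centred on their medians they overlapped. Its difference was −0.55 (95% confidence interval −0.92 to −0.18, limma adjusted p = 0.189). Probe set 1388142_at gave 180.3, 101.2, 138.1, 196.5 and 285.4 on BN arrays 1 to 5, against 253, 282.7, 402.1, 295.9 and 289.7 on LOU arrays 1 to 5. Here BN array 5 lay inside the LOU range and the other BN arrays below it (log2 −0.82, 95% confidence interval −1.40 to −0.25, limma adjusted p = 0.202). Probe set 1388265_x_at was dim, at 36.3, 45, 33.1, 55.2 and 20.4 in BN, against 60, 57.9, 65, 59.5 and 60.1 in LOU. Only 2 of the 5 BN arrays were above background there, while all 5 LOU arrays were, and the difference was −0.75 (limma adjusted p = 0.200). Its suffix marks probes that may also bind other transcripts, so it is the least certain of the 4.

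Probe set 1371233_at, at most 11 in BN and 27.9 in LOU, was not above background on any array and gives no fold. The 3 bright Vcan probe sets varied together from array to array in part: after the strain means were removed, Pearson r over the 10 arrays was 0.67 between 1388054_a_at and 1388142_at, 0.63 between 1388054_a_at and 1371232_a_at, and 0.31 between the remaining pair. The dim 1388265_x_at gave −0.11, −0.47 and −0.24 with them. These are descriptions over arrays that share scaling. Which of the spliced versican forms each probe set reads was not resolved here.

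**Figure D2:**
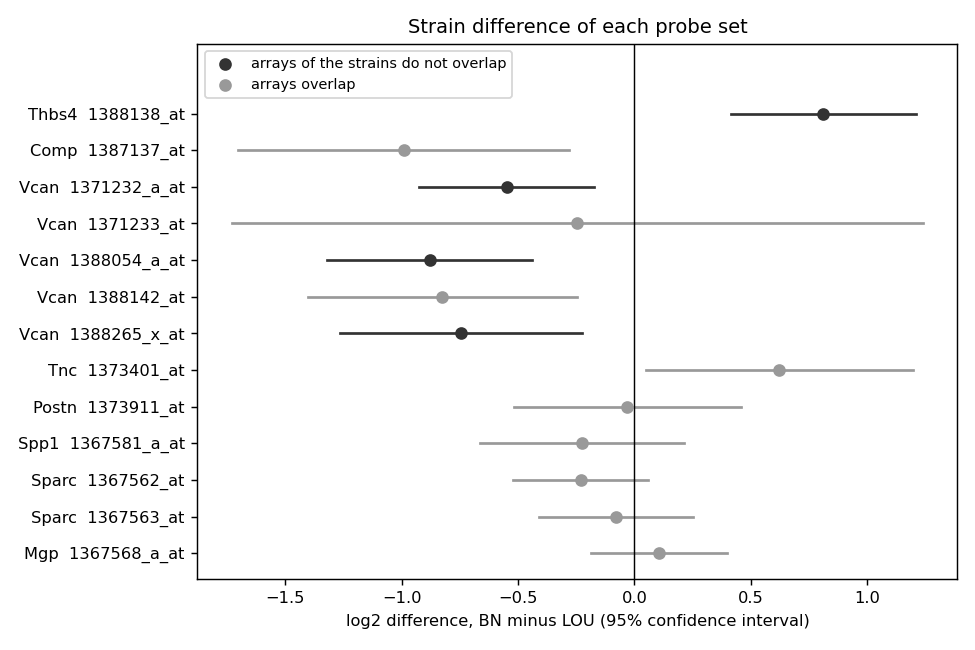
Log2 difference of each probe set, BN minus LOU, with its 95% confidence interval from limma as a horizontal bar; dark points mark probe sets whose BN and LOU arrays do not overlap. Thbs4 (0.81) and Tnc (0.62) lie to the right of 0 and 4 Vcan probe sets (−0.55 to −0.88) and Comp (−0.99) to the left, while the intervals of Postn, Spp1, Sparc and Mgp include 0.

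Vcan and Thbs4 signals also ran in opposite directions among the arrays of a strain, a relation that did not pass after adjustment. LOU array 1 had the lowest Vcan 1388054_a_at signal of LOU (242.4) and the highest Thbs4 signal (106.7), LOU array 3 had the highest Vcan (474.2) and the lowest Thbs4 (56.7), and BN array 2 had the lowest Vcan (137.6) and the highest Thbs4 (146) of all 10 arrays. With the strain means removed, Pearson r was −0.85 over the 10 arrays (exact permutation within strains, two-sided, p = 0.00813, adjusted over 28 pairs of members 0.114) and Spearman correlation was −0.81 (exact permutation p = 0.0218, adjusted 0.172). Without LOU arrays 1 and 3, the farthest from the median, r was −0.59, so the relation leaned on those arrays. The array means of the adipocyte markers were 0.61, 0.81, −0.29, 0.27 and −1.01 on BN arrays 1 to 5. On LOU arrays 1 to 5 they were 0.76, 0.39, −0.78, −0.81 and 0.05. On BN arrays 1, 3, 4 and 5 Vcan 1388054_a_at stayed between 197.9 and 209.4 while these means ran from 0.61 to −1.01. BN array 2, with the highest mean, had the lowest Vcan (137.6) and the highest Thbs4 (146) of BN. BN array 5, with the lowest mean, had the lowest Thbs4 of BN (107.3). LOU array 1, with the highest mean of LOU, gave 242.4 for Vcan and 106.7 for Thbs4. LOU array 4, with the lowest, gave 396.9 for Vcan and 63.3 for Thbs4. A relation of either gene with these means was not tested. With the adipocyte mean as a covariate, the strain difference was 0.76 for Thbs4 (limma adjusted p = 0.0238) and −0.83 for Vcan 1388054_a_at (adjusted p = 0.0394), close to the values without it. The 9 adipocyte markers themselves had a median of 0.06 and summed signals of 3774 to 24140 in BN and 4884 to 20697 in LOU, and 1 of them, Lep, was above background on no array.

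**Figure D3:**
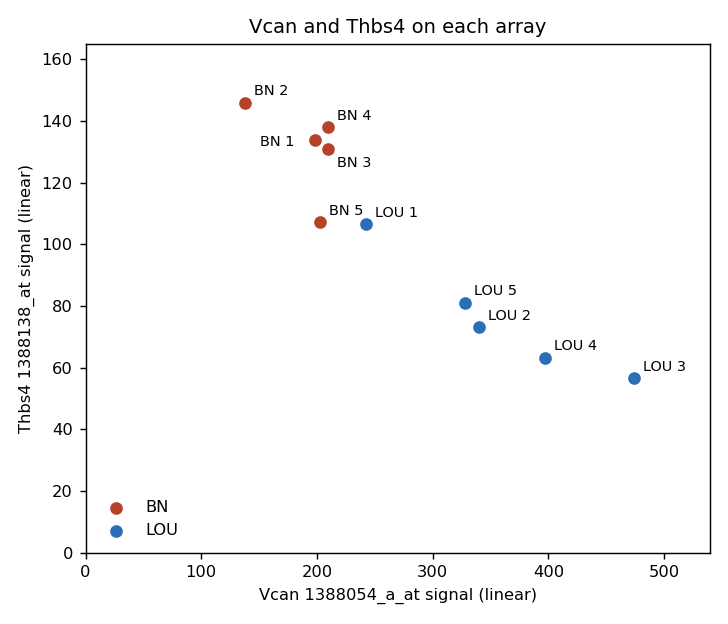
Thbs4 signal (vertical axis) against Vcan 1388054_a_at signal (horizontal axis) on each of the 10 arrays, both linear, labelled by strain and array number. The 5 BN arrays lie at low Vcan and high Thbs4, with BN array 5 next to LOU array 1, and the other LOU arrays run down to LOU array 3, with the highest Vcan (474.2) and the lowest Thbs4 (56.7).

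In RefSeq gene order Vcan and Thbs4 are separated by 32 genes on chromosome 2, of which 10 had a probe set. None of these 10 had an unadjusted limma p under 0.05, and 5 differences were negative. They ran from −0.50 for Ssbp2, a single-stranded DNA binding protein, to 0.41 for Fam151b, with Rps23, a ribosomal protein, at 8598 in BN and 7552 in LOU. Several of them were dim: Acot12 was above background on no array.

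Vcan is a product of fibroblasts as well as smooth muscle. Of 10 measured adventitial fibroblast markers 9 were negative, with a median of −0.44 (−0.03 over all probe sets), and none passed limma's test, while 5 had an unadjusted p under 0.05, all lower in BN, where 8.09% of all probe sets were lower at that threshold. At that threshold 5 of 12 TGF-beta signalling genes, 4 of 10 chondroitin sulfate synthesis genes and 6 of 20 mineralisation genes were also lower, and 0 higher. All 10 fibroblast markers were above background on every array, with summed signals of 29272 to 42968 in BN and 35226 to 46555 in LOU. Pi16, a marker of adventitial fibroblasts, was 389 ± 75.6 in BN and 840.0 ± 258 in LOU (SD, n = 5 each), a log2 difference of −1.08 (limma adjusted p = 0.0730). Sfrp2, a secreted Wnt modulator, was 209 ± 69.4 in BN and 511 ± 181 in LOU, with a difference of −1.28 (adjusted p = 0.0958). With the mean of these markers as a covariate, an alternative chosen after seeing the data, the strain difference was −0.66 for Vcan 1388054_a_at (95% confidence interval −1.32 to 0.01) and 0.52 for Thbs4 (−0.05 to 1.09). Of the other Vcan probe sets, 1388142_at was at −0.42 with it, against −0.82 without, 1371232_a_at at −0.36 with it, against −0.55 without, and 1388265_x_at at −0.98 with it, against −0.75 without. Tnc was at 0.93 with it, against 0.62 without, and Comp at −0.96 (−2.09 to 0.18) with it, against −0.99 without. That covariate differs between the strains itself (−0.52 to −0.02 in BN, −0.11 to 0.67 in LOU), so strain and fibroblast content cannot be told apart by it. It also widens the intervals, and only 2 of 15866 probe sets passed with it.

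Smooth muscle markers, from the other main source of these proteins, were positive in 9 of 10 with a median of 0.21 and none past the test. The median difference was 0.00 for 9 endothelial markers, and lymphocyte markers gave −0.38 over 10 (−0.08 without LOU array 1 and BN array 3). Schwann cell markers gave 0.58 over 9, of which the myelin gene Mbp passed (1.73, limma adjusted p = 0.0460), where 0.246% of all probe sets passed with BN higher. At an unadjusted limma p under 0.05, 4 of these 9 were higher in BN and 1 lower, where 5.16% and 8.09% of all probe sets were. The Mbp call was lost in 13 of 23 alternatives, 9 of them with 1 array left out, and its difference stayed between 1.39 and 1.87. The part of these cells in the member differences was not tested. The covariates named here are marker means of the same bulk arrays, so strain and cell content cannot be told apart by them.

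Tnc encodes tenascin-C, a glycoprotein that counters cell adhesion and appears in remodelling arteries. Its signal was 185, 150.8, 242.3, 110.6 and 220.6 on BN arrays 1 to 5, against 99.4, 182.7, 87.6, 111.3 and 108 on LOU arrays 1 to 5. BN arrays 1, 3 and 5 lay above every LOU array, LOU array 2 lay among the BN arrays, and BN array 4 lay among the LOU arrays. The means were 182 ± 52.9 in BN and 118 ± 37.4 in LOU (SD, n = 5 each), with a log2 difference of 0.62 (95% confidence interval 0.05 to 1.19, limma adjusted p = 0.335). Without BN array 3 the difference was 0.50 (unadjusted p = 0.0861), and leaving out LOU array 1 as well gave 0.46. Tnc also moved least with the other members: its Pearson r with them, within strains, lay between −0.40 and 0.02.

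Postn, Spp1, Sparc and Mgp showed no difference that the test could tell from the spread. Postn encodes periostin, a collagen-binding protein of fibroblasts, and gave 1679.4, 1192.6, 1840.7, 2680.3 and 2593.2 on BN arrays 1 to 5, against 2011.6, 2182.4, 2043.1, 1657.4 and 1911.3 on LOU arrays 1 to 5. The BN arrays spread wider, with a coefficient of variation of 31.6% in BN and 9.97% in LOU, and the LOU arrays lay inside the BN range. The log2 difference was −0.03 (95% confidence interval −0.52 to 0.46, limma adjusted p = 0.969), with a sign that turned under median centring of the arrays (0.02). Spp1 encodes osteopontin, a ligand of integrins and CD44 made by macrophages and by smooth muscle cells. It gave 347.4, 358.2, 302.9, 495.9 and 521.5 on BN arrays 1 to 5, against 373.7, 426.2, 619.6, 497.7 and 432.3 on LOU arrays 1 to 5 (log2 −0.22, 95% confidence interval −0.66 to 0.21, adjusted p = 0.665). BN arrays 4 and 5 lay among the LOU arrays. The macrophage-rich LOU array 1 had the lowest Spp1 of LOU, while the 8 macrophage markers measured were all negative with a median of −0.35 (−0.13 without LOU array 1 and BN array 3) and summed signals of 1027 to 1378 in BN and 1125 to 3091 in LOU.

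Sparc, also called osteonectin, binds collagen as fibrils form. Its 2 probe sets read 9481.6 to 12773.7 in BN, against 11753.1 to 15144.1 in LOU for 1367562_at, and 10045.9 to 14878.6 in BN, against 11433.3 to 16221.2 in LOU for 1367563_at. The differences were −0.23 (95% confidence interval −0.52 to 0.06, limma adjusted p = 0.490) and −0.08 (−0.41 to 0.25, adjusted p = 0.858). Under quantile normalization the arrays of 1367562_at did not overlap, with a difference of −0.29 (limma adjusted p = 0.275). In that setting 399 of all 15866 probe sets separated with BN below. The arrays of 1367563_at still overlapped there (−0.17, adjusted p = 0.559). Mgp encodes matrix Gla protein, a vitamin K-dependent inhibitor of calcification in the artery wall. It gave 10505.8, 11579.6, 9413.1, 10807.2 and 13257.3 on BN arrays 1 to 5, against 9224.6, 10162.9, 10525.9, 12164 and 9433.6 on LOU arrays 1 to 5. Those signals overlapped almost fully, with a log2 difference of 0.11 (95% confidence interval −0.19 to 0.40, adjusted p = 0.767). For Postn, Spp1, both Sparc probe sets and Mgp the intervals leave out a difference of 1 log2 unit in either direction.

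**Figure D4:**
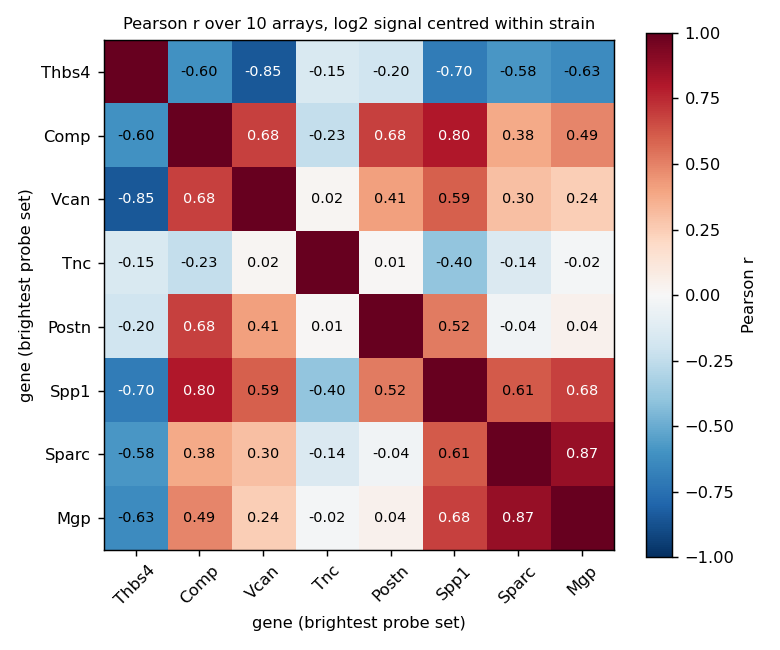
Pearson r between the 8 genes over 10 arrays, each read from its brightest probe set, as log2 signal with the strain means removed; red is positive and blue negative. Thbs4 has negative values with every other gene, the lowest with Vcan (−0.85), and the highest value is that of Sparc with Mgp (0.87).

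Within strains, Thbs4 had a negative r with every other member, from −0.85 with Vcan to only −0.15 with Tnc. Among the rest r was mostly positive, except for Tnc, whose r was near 0 or negative. Sparc and Mgp had the highest r, 0.87 (exact permutation within strains, two-sided, p = 0.00319, adjusted over 28 pairs 0.0894), with a Spearman correlation of 0.78 (exact permutation p = 0.0151, adjusted 0.172). Without BN array 3 and LOU array 4, the farthest from the median, r was 0.75. Comp and Spp1 followed with r = 0.80 (exact permutation p = 0.0224, adjusted 0.126), a Spearman correlation of 0.77 (exact permutation p = 0.0238, adjusted 0.172) and r = 0.81 without BN arrays 2 and 5. No pair passed after adjustment over 28 pairs, and all share the scaling of their arrays.

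The genes whose array-to-array pattern was most like a member's, by Pearson r over the 10 arrays within strains, were drawn from 7369 genes above background throughout and are given as a description. For Thbs4 these were Lactb2, Optn and Coa5, with r of 0.97, 0.96 and 0.96. For Comp they were Map7d1, Daam1 and Hip1 (0.98, 0.97 and 0.97), and for Vcan Eml4, Grik5 and Zfr2 (0.93, 0.92 and 0.92). Tnc had the loosest matches, Med7, Fam171a1 and Fahd2a, between 0.84 and 0.85. Postn was nearest to Slc22a8, Krit1 and Il17b (0.95 to 0.96), of which Il17b, a cytokine of the interleukin 17 family, itself differed between the strains (log2 0.98, limma adjusted p = 0.0455). Spp1 was nearest to LOC100910558, Kmt2a and Pam (0.94), Sparc to Mafk, Bloc1s1 and Fbxl22 (0.95 to 0.97) and Mgp to Atg16l1, Cd63 and Rpl19 (0.95 to 0.97).

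Receptors of the matricellular proteins held the smallest p-value among the 7 related gene lists. Of 16 measured, 11 were negative, with a median of −0.19, and 1 passed, the integrin alpha 1 gene Itga1, whose product pairs with beta 1 to bind collagen and laminin. Itga1 gave 154.4, 110.9, 80.2, 99.9 and 94.3 on BN arrays 1 to 5, against 207, 343.5, 375.8, 474.2 and 317.1 on LOU arrays 1 to 5. The strains did not overlap, and Itga1 fell by 1.66 on the log2 scale in BN (limma adjusted p = 0.0131, passing however any 1 array was left out), while with the fibroblast mean as a covariate the difference was −1.28 (adjusted p = 0.488). In all, 0.542% of probe sets were lower in BN by this test, and 2.77% separated with BN below. Its partner Itgb1 was 3858 ± 460 in BN and 3751 ± 677 in LOU (log2 0.05). Egfr, whose product tenascin-C can bind, was 158 ± 28.8 in BN and 85.5 ± 17.2 in LOU, without overlap (0.89, adjusted p = 0.0579), where 1.41% of all probe sets separated with BN above. The thrombospondin receptor genes Cd36 and Cd47 gave −0.13 and −0.36, and the hyaluronan and osteopontin receptor gene Cd44 gave 0.56 (limma adjusted p = 0.178). Itgb1, Egfr, Cd36 and Cd47 were chosen after their values were seen.

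Other matricellular genes, 12 measured of 18, had 8 negative members and a median of −0.16, and none passed. The smallest p was that of Ccn1, an immediate early protein that binds integrins, at 726.7, 263.3, 116, 295 and 164.4 on BN arrays 1 to 5, against 934.1, 220.7, 2353.4, 2821.6 and 1311 on LOU arrays 1 to 5. LOU array 2 lay among the BN arrays and the other LOU arrays above them, so that the log2 difference of −2.14 did not pass (limma adjusted p = 0.226). Ccn4 was 42.9 ± 13.8 in BN and 69.0 ± 18.2 in LOU, with an adjusted p of 0.275 and 2 BN arrays above background. Ccn2 (−0.14), Ccn3 (0.04) and Sparcl1 (−0.18), the relative of Sparc, lay near 0 and were chosen after their values were seen.

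Genes that make or bind versican and its chains gave small differences. Of 10 genes of chondroitin sulfate synthesis, 9 were negative, with a median of −0.32, and none passed. Chsy1, a chondroitin synthase, was 214 ± 30.2 in BN and 285 ± 28.9 in LOU (log2 −0.42, limma adjusted p = 0.221), and Fam20b, a xylose kinase that promotes chain growth, was 317 ± 17.1 in BN and 389 ± 27.8 in LOU (−0.29, adjusted p = 0.252). Neither overlapped between the strains, where 2.77% of all probe sets separated with BN below. Hyaluronan synthases, receptors and link proteins, 15 measured, had a median of −0.09 and no member past the test, with Cd44 at 167 ± 25.4 in BN and 114 ± 22.3 in LOU and Fbln1, a versican-binding fibulin, at 141 ± 10.2 in BN and 203 ± 52.7 in LOU (−0.49, adjusted p = 0.267). Has2, the synthase of hyaluronan, gave −0.09, chosen after its value was seen. Of 8 genes for versican cleavage and its inhibition 3 were measured and none passed: Timp3 gave 0.17, Adamts1 −0.26 and Adamts9 −0.16.

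Genes of mineralisation and of Mgp carboxylation were negative in 16 of 20, with a median of −0.21, while Mgp itself was not lower. Bmp4, a bone morphogenetic protein that Mgp can bind, fell by 1.34 on the log2 scale in BN, to 99.4 ± 16.6 against 255 ± 65.6 in LOU (limma adjusted p = 0.0142). It was the 1 gene of the list to pass, where 0.542% of all probe sets passed with BN lower. It passed however any 1 array was left out, but with the fibroblast mean as a covariate its difference was −0.80 (limma adjusted p = 0.446). Ggcx, the carboxylase that activates Mgp, was 240.3 ± 47.4 in BN and 326 ± 26.2 in LOU, without overlap (−0.46, adjusted p = 0.235), where 2.77% of all probe sets separated with BN below. Alpl, alkaline phosphatase, gave −1.07 (adjusted p = 0.125), and both Ggcx and Alpl were chosen after their values were seen. TGF-beta signalling genes, inducers of several members, were negative in 10 of 12 with a median of −0.35, and none passed. Tgfb1 was 132 ± 20.1 in BN and 197 ± 8.79 in LOU (−0.59, adjusted p = 0.0730), and Tgfbr1 gave −0.60 (adjusted p = 0.165).

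**Figure D5:**
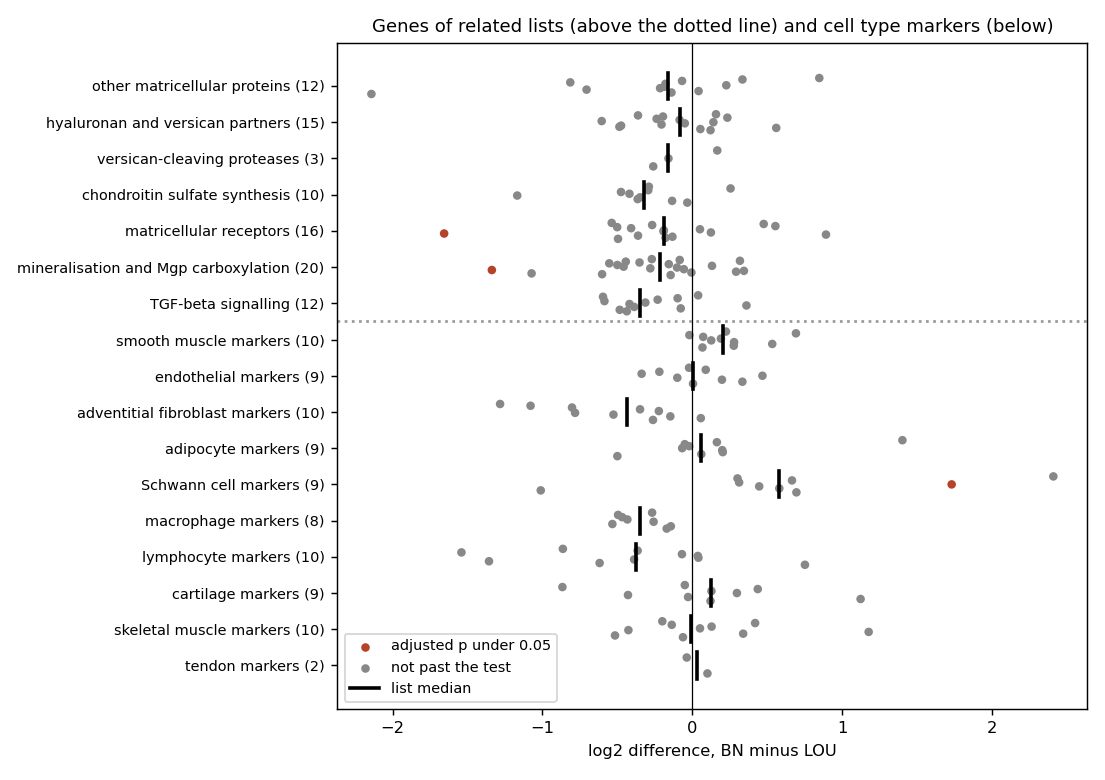
Log2 difference (BN minus LOU, horizontal axis) of each measured gene in 7 related gene lists and 10 cell type marker lists, read from the brightest probe set, with the list median as a black bar and the number of genes in brackets. Itga1 (−1.66), Bmp4 (−1.34) and the Schwann cell gene Mbp (1.73) are the red points past the test, the Mbp call being lost in 13 of 23 alternatives, and the fibroblast and TGF-beta medians lie at −0.44 and −0.35.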

How the data were processed

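The authors deposited 1 intensity per probe set and array, a linear signal; RMA is named in the submitters' processing notes with no version, yet these (0 to 22219.9, 2% trimmed mean near 200.05 on every array) are not on RMA's log2 scale. For testing, the deposited intensity was put on a log2 scale, with 0 (4 values, none of a member) set to 0.1. Strain came from the sample titles.

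Limma 3.58.1 in R 4.3.3 (lmFit, eBayes, two-sided) compared 5 BN with 5 LOU arrays over 15866 probe sets, 57 controls left out, with Benjamini-Hochberg adjustment. On simulated arrays with 200 changed probe sets among 15866 it recovered 50.6% of changes of 1 log2 unit and 78.3% of 2, with 5.85% false calls. Gene names came from the platform annotation and the GRCr8 RefSeq table; 12783 probe sets had 1 name. Other genes were read from their brightest probe set. All member probe sets were named, with up to 4 genes per list that passed, or the 2 with the smallest p, and the 3 genes most like each member. Members and lists were chosen with earlier results of these data known. Same-numbered arrays did not deviate together (r −0.045 to 0.015), so numbers were not treated as pairs. Python 3.11.15 made summaries and plots.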

Additional observations from a re-analysis of the deposited data

Results flagged for a closer look

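Of 26 sets of 5 arrays (13 probe sets in each strain), 2 held an array whose gap to its nearest neighbour was a large part of the whole range (Dixon's ratio above 0.71), where chance flags about 1 in 20. For Vcan 1388054_a_at, BN array 2 gave 137.6, below the other BN arrays at 197.9 to 209.4, with a ratio of 0.866. For Vcan 1371232_a_at, BN array 4 gave 129, below the other BN arrays at 159.8 to 167.9, with a ratio of 0.812. Different arrays were low for the 2 probe sets, and both are on the side away from LOU. Without BN array 2 the difference of 1388054_a_at was −0.77, and without BN array 4 that of 1371232_a_at was −0.48.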

How the results depend on the processing

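No member passed in the fit reported. Thbs4 and Vcan 1388054_a_at both passed without the dimmest 40% of probe sets (2 of 11 member probe sets, 9519 probe sets tested). Both passed with probe sets kept where all 5 arrays of either strain exceeded background (2 of 12, 11309 tested). These 2 filters adjusted over fewer probe sets and left the differences at 0.81 and −0.88. Both also passed with the adipocyte mean as a covariate (2 of 13). Thbs4 alone passed with array weights and Vcan 1388054_a_at alone with a variance trend (1 each). Leaving out any 1 array gave 0 to 2, and LOU array 1 was the array whose absence gave 2. Across all alternatives the difference of Thbs4 stayed between 0.52 and 0.94 and that of Vcan 1388054_a_at between −1.05 and −0.66, and every alternative kept the sign of Comp, Tnc, Mgp, Sparc 1367562_at and the 4 brighter Vcan probe sets. Member probe sets without overlap numbered 3 to 5. Over all 15866 probe sets 439 separated with BN below and 224 with BN above in the fit reported. Without LOU array 1 these counts were 712 and 392, and without that array and BN array 3 they were 875 and 559. Fewer arrays separate more easily, so a steady member count there is not a sign of stability. Signs near 0 turned for Postn (0.021 with median centring, 0.0136 with array weights, 0.12 with the fibroblast covariate, −0.15 to 0.14 with 1 array left out), Sparc 1367563_at (0.15 with that covariate, −0.14 to 0.00104 with 1 array left out), Spp1 (0.00434 with that covariate) and Vcan 1371233_at, below background (0.23 without BN array 3 and LOU array 1, −0.53 to 0.27 with 1 array left out). Over all 15866 probe sets 125 passed, against 253 of 9519 without dim probe sets and 263 of 11309 above background. The count was 204 with a pseudocount of 16, 242 with a variance trend and 75 without BN array 3 and LOU array 1. It was 2 with the fibroblast covariate. Leaving out 1 array gave 63 to 127, with 67 lacking BN array 2 and 79 lacking BN array 4. It gave 65, 63, 75 and 78 lacking LOU arrays 2, 3, 4 and 5 in turn. With the replicate block 23 passed, and no member; Itga1, Bmp4 and Mbp did not pass with that block (adjusted p 0.153, 0.170 and 0.176) or the fibroblast covariate, and Mbp passed in 1 of the 10 fits with 1 array left out. Median centring moved the median of all differences to 0.02, against −0.03. Dim signals limit 1388265_x_at.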
